A study of Mus musculus with 55 samples.

Results

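The interferon regulatory factor genes of mouse blood stem and progenitor cells were followed through 8 members, the transcription factors Irf1, Irf2, Irf4, Irf5, Irf7, Irf8 and Irf9 and the cofactor Irf2bp2, taken by gene symbol from the 55421 genes of a bulk RNA-seq count table of 46 libraries. Irf3 was left out because it was placed with the DNA sensing genes. The table covers 6 populations sorted from bone marrow, long-term and short-term hematopoietic stem cells (LT-HSC, ST-HSC), common myeloid, granulocyte-monocyte and megakaryocyte-erythroid progenitors (CMP, GMP, MEP) and common lymphoid progenitors (CLP), each from WT mice and from mice labelled Tet2-/-, with 22 WT libraries (3 in LT-HSC and ST-HSC, 4 in the others) and 24 libraries labelled Tet2-/- (4 in each population). A second table of 35976 genes holds 9 LT-HSC libraries, 3 labelled WT, 3 labelled Sting-/- and 3 labelled Tet2;Sting DKO. The mice were on C57BL/6. Tet2 was removed with Mx1-Cre in Tet2 f/f animals after 5 doses of poly(I:C) at 4 weeks of age, and cells of the first table were taken 16 weeks later, while the interval for the second is not given in the sources used here; Sting-/- is a germline deletion. The Mx1 promoter answers to interferon and poly(I:C) induces it, so the deleter itself engages the pathway described here, and whether WT animals received poly(I:C) is not given in the sources used here. The labels give 200 sorted cells for a library and the study's methods a larger number. The study describes its LT-HSC libraries as coming from individual mice, whereas the labels name no animals; whether libraries of different populations share an animal is not known here, and p-values measure the spread between these libraries.

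Interferon regulatory factors share a DNA-binding domain that reads the interferon-stimulated response element, a repeat of GAAA. Secreted interferon signals through its receptor, JAK kinases and STAT proteins. Irf9 is the DNA-binding subunit of ISGF3, the complex that switches on the antiviral genes, and Irf1 is raised by interferon gamma through GAS elements. Irf2 occupies the same sites as Irf1 and mostly restrains them, and Irf2bp2 is a corepressor that docks on Irf2 without being an interferon regulatory factor itself. Irf5 and Irf7 act after Toll-like receptors on inflammatory cytokine and interferon genes, Irf8 works with PU.1 (the product of Spi1) in monocyte and dendritic fate, and Irf4 is a factor of B cells and plasma cells.

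The libraries of the first table held 50458473 to 102148079 counts, those of the second 26776517 to 78682096. All 8 members had 1 row in each table. Levels are given as TMM-scaled CPM, the share of a library's counts on a fixed scale, in the order of the replicate numbers in the labels, and a change is called where edgeR's quasi-likelihood test gave an adjusted p under 0.05 over all genes tested. Tet2 itself had 14, 14.4 and 11.3 CPM in WT LT-HSC and 27.2, 12.1, 16.1 and 40.4 CPM under the Tet2-/- label, that is no less; a count over the whole gene includes exons outside the floxed part, so it neither checks nor contradicts the label. Among markers of the sorted populations, the GMP and MEP lists were high in their own populations, but the CLP libraries also carried 157 to 97260 CPM of plasma cell markers. The LT-HSC list was at 334 to 534 CPM in WT LT-HSC and, not far below, at 289.5 to 327 CPM in WT ST-HSC. Among its genes, Slamf1 was at 44.5 to 61.9 and at most 1.61 CPM. The list for lineage-negative, Sca1 and cKit positive (LSK) cells was at 387 to 468 CPM in WT LT-HSC and higher, at 736 to 849 CPM, in WT CMP. The CLP marker list (Il7r, Ly6d, Dntt, Rag1) summed to 1456 to 1864 CPM in WT CLP and to 493 to 2585 CPM in CLP labelled Tet2-/-, against at most 118 CPM elsewhere; of its genes, Rag1 was at 0 in all 4 WT CLP libraries and at 0.0599 to 19.4 CPM in those labelled Tet2-/-. In bulk samples, fewer cells of a type and less RNA per cell cannot be told apart.

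The members lie on 6 chromosomes of GRCm38 (GENCODE vM21 coordinates). Irf1 is at chr11:53770014-53778374, Irf4 at chr13:30749226-30766976, Irf5 at chr6:29526625-29541871 and Irf9 at chr14:55603571-55610030, all on the plus strand. Irf7 is at chr7:141262706-141266481 on the minus strand. Chromosome 8 holds Irf2 (chr8:46739732-46847458, plus), Irf8 (chr8:120736358-120756694, plus) and Irf2bp2 (chr8:126588296-126593986, minus). Exons of Irf1, Irf5, Irf7, Irf9 and Irf2bp2 share 135, 411, 45, 123 and 1039 bases with another gene, and whether the counting used strand is not stated; the neighbour of Irf2bp2, the antisense gene Gm26759, had at most 5 counts in a library, but opposite-strand neighbours of Irf5 (Tnpo3), Irf7 (Phrf1) and Irf1 (Gm17334) reached 11385, 6398 and 3899 counts and that of Irf9 on its own strand (Rnf31) 1561, so the levels of these 4 members could hold reads of their neighbours.

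The upstream sequences of 4 members are shown for the interferon response letters that they hold or lack. Each is the 250 bases before the RefSeq start (GRCm38.p6), 5′ to 3′ on the gene's strand, with capitals for the ISRE core GAAANNGAAA or its reverse complement TTTCNNTTTC and for the GAS letters TTCNNNGAA, which read the same on both strands. Irf1 (chr11:53769764-53770013, plus) is shown for its GAS match, Irf2 (chr8:46739495-46739744, plus) as the only member with an ISRE core, Irf8 (chr8:120736108-120736357, plus) for its pair of GAS matches, and Irf2bp2 (chr8:126593987-126594236, minus), the member with a called genotype difference, for having neither.
Irf1: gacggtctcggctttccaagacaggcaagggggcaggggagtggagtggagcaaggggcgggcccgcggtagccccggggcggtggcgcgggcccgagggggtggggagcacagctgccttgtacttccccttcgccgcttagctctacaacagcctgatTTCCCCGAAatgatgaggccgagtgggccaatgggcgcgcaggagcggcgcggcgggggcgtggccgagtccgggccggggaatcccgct
Irf2: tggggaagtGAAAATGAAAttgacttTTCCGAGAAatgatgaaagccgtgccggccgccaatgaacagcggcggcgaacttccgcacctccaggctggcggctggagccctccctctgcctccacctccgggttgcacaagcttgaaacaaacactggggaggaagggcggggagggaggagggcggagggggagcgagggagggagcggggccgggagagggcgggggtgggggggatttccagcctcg
Irf8: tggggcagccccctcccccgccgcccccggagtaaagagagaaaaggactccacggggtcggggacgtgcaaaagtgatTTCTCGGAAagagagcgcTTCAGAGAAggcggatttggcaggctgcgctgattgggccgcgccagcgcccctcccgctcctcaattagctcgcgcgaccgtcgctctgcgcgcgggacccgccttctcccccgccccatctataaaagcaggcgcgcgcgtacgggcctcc
Irf2bp2: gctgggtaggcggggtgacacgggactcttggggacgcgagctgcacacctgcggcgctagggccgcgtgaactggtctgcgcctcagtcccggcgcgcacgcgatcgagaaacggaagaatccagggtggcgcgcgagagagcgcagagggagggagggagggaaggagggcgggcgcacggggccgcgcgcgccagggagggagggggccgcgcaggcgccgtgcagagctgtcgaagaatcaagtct
Counted from the start, the GAS match of Irf1 begins at position -90, that of Irf2 at -224, with its ISRE core at -241, and those of Irf8 at -171 and -153. Windows of 300 bases (250 before to 50 after the start) were searched for all members, and those of Irf4, Irf5, Irf7, Irf9 and Irf2bp2 held neither set of letters. Of all 32851 RefSeq windows of this length, 3.44% held the ISRE core and 8.3% the GAS letters. The window of Irf2bp2 held 39 CpG, against 7 in Irf7 and a median of 7 over all windows. Irf1, Irf8 and Irf9 had a pair of windows each, with 32 and 43 CpG in those of Irf1, 38 and 8 in those of Irf8 and 9 and 1 in those of Irf9. The sequences of Irf1 and Irf8 above belong to the windows with 32 and 38.

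**Figure D1:**
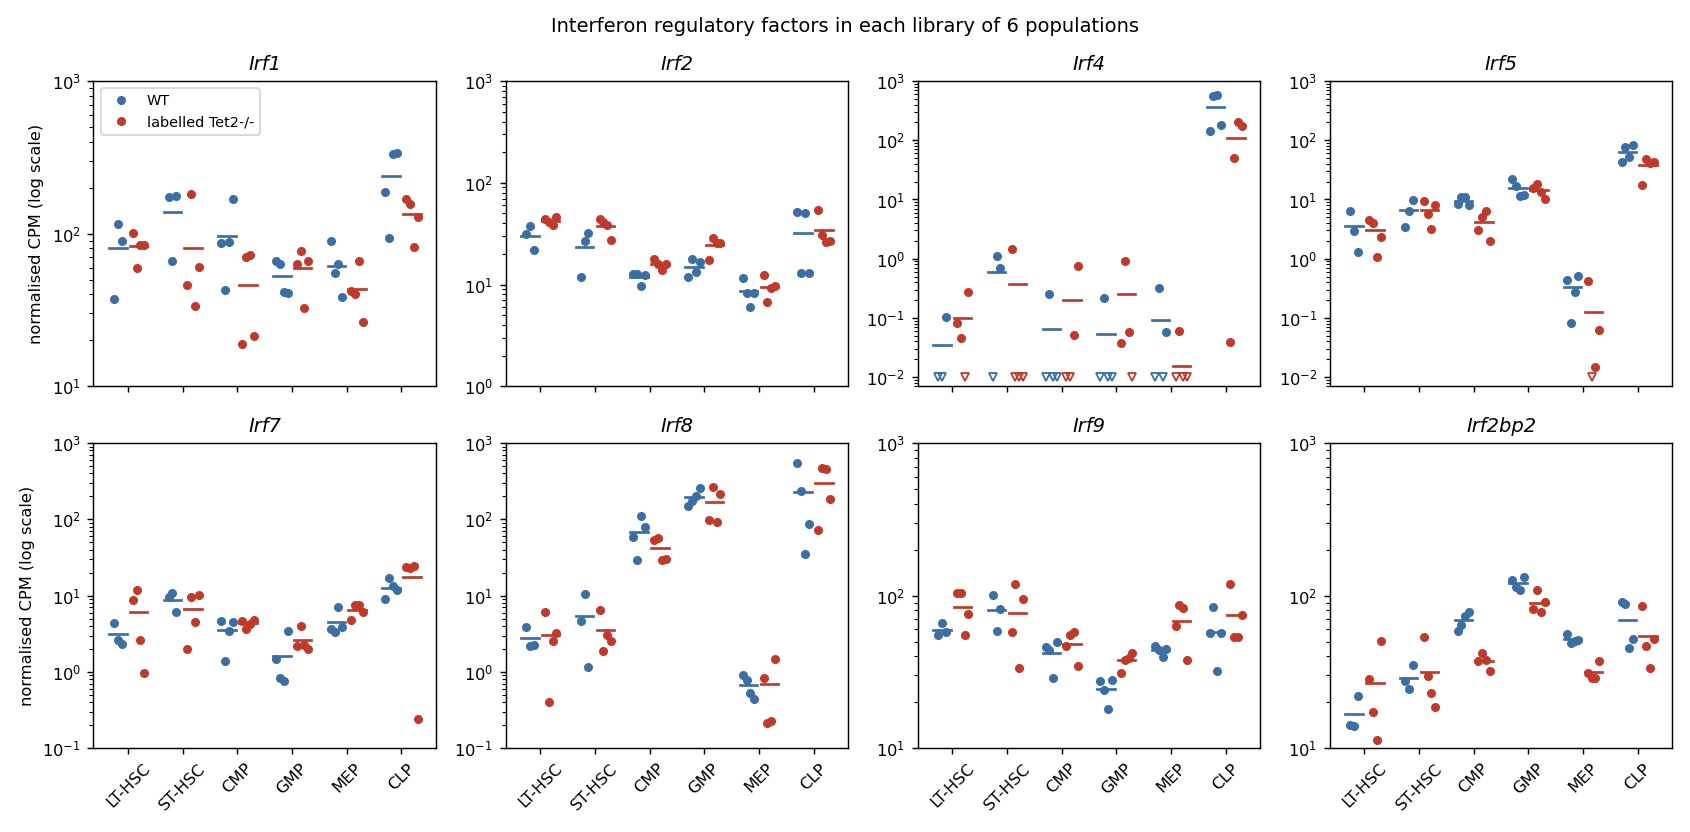
Normalised level of the 8 members in each of the 46 libraries of the first table, by population, on a log scale in CPM. Each point is 1 library, WT and labelled Tet2-/- in different colours, lines are group means and open triangles libraries with no counts. Irf4 is high only in CLP, Irf8 and Irf5 fall to their lowest in MEP, and Irf2bp2 peaks in GMP.

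The first comparison asked how the family is distributed over WT populations. All 8 members differed between the 6 WT populations by edgeR's F test, against 44.6% of the 20006 genes tested; without the CLP libraries, an alternative added after seeing the data, 6 did, against 50.7% of genes. Between the pairs of populations named here, the share of genes called was 6.9% for CMP and 19.5% for GMP and 14.9% for MEP against LT-HSC, 6.31% for CMP, 19% for GMP and 18% for MEP against ST-HSC, 8.9% for MEP against CMP, 19.3% for MEP against GMP and 24.5% for CLP against GMP. The members differed in their directions, so that per length of transcript Irf1 led the family in LT-HSC, ST-HSC, CMP and MEP (24.2, 41.2, 28.7 and 18.4 CPM per kb), Irf8 in GMP (57.0 CPM per kb) and Irf4 in CLP (76.3 CPM per kb).

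Irf8, the monocyte and dendritic factor, had the steepest myeloid gradient. WT LT-HSC libraries had 3.85, 2.20 and 2.23 CPM, ST-HSC 4.69, 10.5 and 1.16 CPM, CMP 58.1, 29.5, 109.5 and 78.6 CPM, GMP 148, 176, 203 and 255 CPM, and MEP 0.924, 0.792, 0.528 and 0.440 CPM. Every GMP library exceeded every CMP library, and every CMP library exceeded every stem cell library. GMP exceeded LT-HSC by 6.16 on the log2 scale (SE 0.91, adjusted p = 6.21e-05), and MEP fell below GMP by 8.20 (SE 0.88, adjusted p = 1.51e-06). The step from ST-HSC to CMP was 3.66 (SE 0.80, adjusted p = 0.00793) and lost its call when the WT libraries numbered 2 or 5 were left out. GMP and CMP, neighbours in the order of levels, were apart by 1.53 without a call (adjusted p = 0.227), and ST-HSC and LT-HSC overlapped.

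Irf5, which drives inflammatory cytokine genes, followed the same order outside CLP. It stood at 22.6, 17.1, 11.6 and 11.8 CPM in WT GMP libraries, at 8.30, 10.9, 11.0 and 7.97 CPM in CMP and at 0.433, 0.0819, 0.277 and 0.514 CPM in MEP. Every MEP library was thus below every library of the other 5 WT populations. The fall from CMP to MEP was 4.79 on the log2 scale (SE 0.59, adjusted p = 1.82e-05) and that from LT-HSC to MEP 3.37 (SE 0.56, adjusted p = 0.000329). CLP was the highest population at 42.8, 76.0, 52.2 and 83.9 CPM, 2.03 above GMP (SE 0.52, adjusted p = 0.00849).

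Irf2bp2, the corepressor, rose from stem cells to myeloid progenitors. WT LT-HSC libraries had 14.2, 14.1 and 22.1 CPM, ST-HSC 27.5, 24.4 and 34.9 CPM, MEP 56.4, 49.0, 50.2 and 51.0 CPM, CMP 59.0, 64.1, 73.8 and 78.7 CPM, and GMP 126, 115, 109 and 133 CPM. These 5 populations did not overlap with one another. GMP exceeded LT-HSC 7.37-fold (log2 2.88, SE 0.26, adjusted p = 2.47e-07), CMP exceeded LT-HSC by 2.05 (SE 0.25, adjusted p = 3.15e-05), and MEP was below GMP by 1.29 (log2 -1.29, SE 0.22, adjusted p = 0.000238). CLP libraries, at 90.3, 88.2, 45.4 and 52.0 CPM, spread from below the MEP to above the CMP libraries. The median over all genes tested was -0.34 for CLP minus GMP and -0.21 for MEP minus GMP. Between neighbours in this order, GMP exceeded CLP by 0.81 (adjusted p = 0.0101), a call lost with RLE size factors (adjusted p = 0.0596) or without the WT libraries numbered 5, and MEP exceeded ST-HSC by 0.79 (adjusted p = 0.0253), a call lost without those numbered 2 or 3 or with no low-count filter (adjusted p = 0.06).

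Outside CLP, Irf2 and Irf9 ran the other way, with their higher levels in stem cells. Irf9, the DNA-binding subunit of ISGF3, was at 55.2, 66.0 and 57.9 CPM in WT LT-HSC, at 101, 58.7 and 81.3 CPM in ST-HSC and at 27.4, 24, 18.0 and 28.2 CPM in GMP. GMP libraries lay below all stem cell libraries, by 1.25 on the log2 scale against LT-HSC (log2 -1.25, SE 0.27, adjusted p = 0.00253) and by 1.70 against ST-HSC (log2 -1.70, SE 0.27, adjusted p = 0.000163). Irf2, the antagonist of Irf1, was at 31.1, 37.4 and 21.9 CPM in LT-HSC, at 11.9, 26.8 and 32.1 CPM in ST-HSC and at 11.7, 8.27, 6.03 and 8.19 CPM in MEP, its lowest population. The fall from LT-HSC to MEP was 1.85 (log2 -1.85, SE 0.46, adjusted p = 0.00964), and it lost its call without the WT libraries numbered 3. CLP libraries were at 52.1, 13.1, 50.1 and 12.9 CPM of Irf2, whose mean was thereby highest in CLP (32.1 CPM against 30.1 CPM in LT-HSC), and their mean of Irf9 was 57.7 CPM against 59.7 CPM in LT-HSC. Neighbouring populations in the order of Irf2 overlapped. Of those of Irf9, CMP and GMP were apart without a call (log2 0.76, adjusted p = 0.105), and the others overlapped.

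Irf1 and Irf7 had their highest mean levels in CLP. Irf1, the activator induced by interferon gamma, ranged from 37.1 to 116 CPM in WT LT-HSC, from 66.0 to 177 CPM in ST-HSC, from 42.5 to 168 CPM in CMP, from 41.1 to 65.8 CPM in GMP and from 38.6 to 90.1 CPM in MEP. CLP, at 189, 93.7, 331 and 336 CPM, exceeded GMP by 2.18 on the log2 scale (SE 0.48, adjusted p = 0.00255). Irf7, the inducible factor of interferon alpha genes, was low throughout, with 0.767 to 3.42 CPM in GMP and 9.13, 16.8, 13.2 and 12 CPM in CLP. The CLP libraries did not overlap with GMP, and the difference was 2.96 (SE 0.57, adjusted p = 0.00088). For Irf1 and Irf7 all neighbouring populations in the order of levels overlapped.

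In the libraries labelled Tet2-/-, the F test called 5 of the 8 members between populations (Irf2, Irf4, Irf5, Irf8 and Irf2bp2), against 40.2% of the 19415 genes tested. Irf1, Irf7 and Irf9 had adjusted p of 0.066, 0.116 and 0.0861 there. DESeq2 called all 8, against 46% of genes.

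Across the 46 libraries, genes with the most similar profile were picked for each member by Pearson r of log2 CPM among 22360 genes, as a description. Irf8 was closest to Dok3 (r = 0.92), Irf5 to Trib1 (r = 0.92), Irf4 to the light chain gene Iglv3 (r = 0.93) and the B cell coactivator Pou2af1 (r = 0.92), and Irf2bp2 to Ppp2r5d (r = 0.88). Irf9 had Tgtp1, Gbp7 and Tgtp2, all interferon-inducible GTPase genes, as its nearest profiles (r = 0.75, 0.75 and 0.73). For Irf2 they were Gm8979, Mndal and Utrn (r = 0.81, 0.79 and 0.79), for Irf1 Glipr2, Sdc4 and Bhlhe40 (r = 0.71, 0.70 and 0.70) and for Irf7 Fhit, Rnf167 and Lgals8 (r = 0.69, 0.67 and 0.63).

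The second comparison asked, within each population, which members differed between genotypes. One member passed in CMP and in MEP, and it was the same one, Irf2bp2, lower in the libraries labelled Tet2-/-. In GMP, Irf2bp2, Irf9 and Irf2 came close to the threshold without passing it. In LT-HSC, ST-HSC and CLP no member was near a call.

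**Figure D2:**
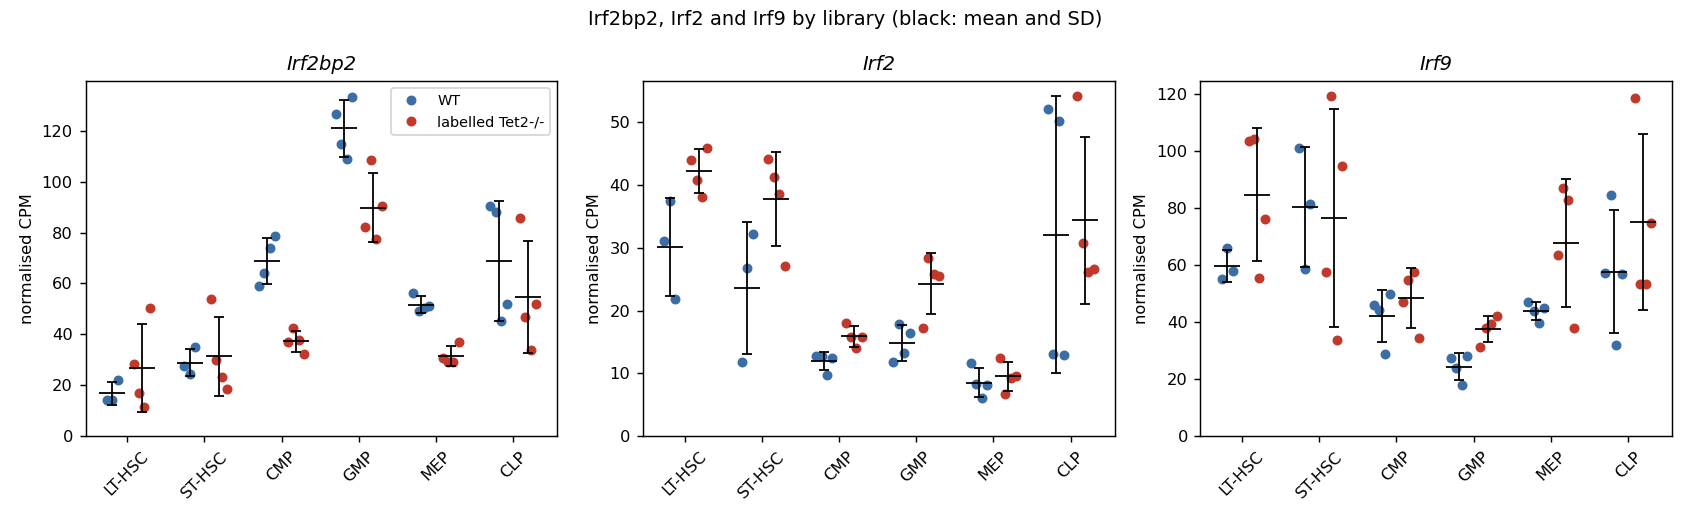
Normalised level (CPM) of Irf2bp2, Irf2 and Irf9 in every library, by population and genotype; points are libraries and black bars the group mean and SD. In CMP, GMP and MEP all Irf2bp2 points of the libraries labelled Tet2-/- lie below all WT points, whereas Irf9 in GMP and Irf2 in LT-HSC and CMP lie above them.

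In CMP, Irf2bp2 was at 59.0, 64.1, 73.8 and 78.7 CPM in WT and at 37.2, 42.4, 37.7 and 32.2 CPM in the libraries labelled Tet2-/-. The groups did not overlap, and the level was 1.86-fold lower (log2 -0.89, SE 0.14, adjusted p = 0.00508). This was 1 of 8 members, with 7 tested because Irf4 was too low, against 6.89% of 16047 genes called in CMP and 5.18% called lower. In MEP, Irf2bp2 was at 56.4, 49.0, 50.2 and 51.0 CPM in WT and at 30.9, 29.1, 29.0 and 37.1 CPM in the libraries labelled Tet2-/-. Again no library crossed into the other group, and the level was 1.65-fold lower (log2 -0.72, SE 0.14, adjusted p = 0.0153), 1 of 7 members tested against 5.66% of genes called and 8.44% apart in this direction. In GMP, Irf2bp2 was at 126, 115, 109 and 133 CPM in WT and at 82.3, 108, 77.5 and 90.5 CPM in the libraries labelled Tet2-/-. The groups were apart here too, as were those of 7.28% of genes in this direction. The 1.38-fold difference (log2 -0.47, SE 0.13, adjusted p = 0.0524) fell short of the threshold; DESeq2, which called 10.3% of genes in GMP, gave an adjusted p of 0.0103. No change of a called member reached 2-fold.

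Being apart in all 3 populations was shared by 527 of 13911 genes tested in each (3.79% with every library labelled Tet2-/- below every WT library). The MEP call was lost without the library labelled Tet2-/- numbered 3 (adjusted p = 0.0552) and without WT library 2 (adjusted p = 0.0563). It was also lost when the replicate number was added to the model as a block. The GMP difference passed without the library labelled Tet2-/- numbered 3 (log2 -0.61, adjusted p = 0.0129). In 1 fit of all 46 libraries, where all populations share one estimate of the spread, the CMP and MEP differences kept their size (log2 -0.88 and -0.71) but had adjusted p of 0.282 and 0.482. In the same CMP libraries the summed MEP markers were 506 to 1516 CPM in WT and 2694 to 5490 CPM in those labelled Tet2-/-, the monocyte markers 207 to 515 and 80.5 to 319 CPM, and the mitochondrial share of counts 5.94 to 6.57% and 7.85 to 8.37%. The MEP markers did not move together in CMP. There Klf1 went the other way from the sum, at 26.1 to 71.5 CPM in WT and 13.7 to 19.3 CPM in those labelled Tet2-/-. Gata1 overlapped, at 74 to 104 and 83.35 to 122.5 CPM. In the MEP libraries the mitochondrial share was 6.85 to 9.18% and 8.96 to 9.74%, the erythroid markers were 154 to 433 CPM in WT and 80.3 to 107 CPM in those labelled Tet2-/-, and the MEP markers 12730 to 14630 and 13880 to 18830 CPM. Among the MEP markers the erythroid factor Klf1 was at 239 to 402 and 25.2 to 48.6 CPM, whereas Gata1 was at 217 to 271 and 227 to 285 CPM. Xbp1, a gene of the plasma cell list, lay lower in the libraries labelled Tet2-/- of all 3 populations, at 58.2 to 101 and 8.56 to 26.8 CPM in CMP, at 113 to 145 and 11.3 to 30.0 CPM in GMP and at 35.4 to 111 and 0.588 to 18.0 CPM in MEP, while the plasma cell gene Jchain was at 7.19 CPM or less in all of them. In the GMP libraries the mitochondrial share was 3.64 to 4.60% in WT and 4.74 to 5.09% in those labelled Tet2-/-. Their summed markers of the LSK list (lineage-negative, Sca1 and cKit positive cells) were 711 to 904 and 924 to 1048 CPM. Their GMP markers overlapped (30750 to 42770 and 35750 to 44800 CPM). The LSK list (Ly6a, Kit, Cd34 and Flt3) does not single out LSK cells, since WT LT-HSC libraries had 387 to 468 CPM of it. The products of Kit and Cd34 were also used to sort GMP. The part of these values in the results, those of Irf9 and Irf2 in GMP included, was not tested.

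Outside the myeloid progenitors, no such fall of Irf2bp2 was detected. In LT-HSC the libraries labelled Tet2-/- had 28.3, 17.2, 11.4 and 50.4 CPM against 14.2, 14.1 and 22.1 CPM in WT, with overlap (log2 0.70, SE 0.52, adjusted p = 0.998). In ST-HSC they had 53.8, 29.8, 23.1 and 18.8 CPM against 27.5, 24.4 and 34.9 CPM (log2 0.15, SE 0.39). In CLP they had 85.6, 46.9, 33.8 and 52.1 CPM against 90.3, 88.2, 45.4 and 52.0 CPM (log2 -0.37, SE 0.40). The edgeR test of interaction, which asks whether the genotype difference varied between populations, called no member, against 2.65% of 22360 genes, nor did DESeq2, against 5.97%. Irf2bp2 was the member with an unadjusted p under 0.05 (adjusted p = 0.261). The LT-HSC difference minus the mean of the other 5 was 1.12 for Irf2bp2 (SE 0.37, adjusted p = 0.447), not called by edgeR against 0.157% of genes but called by DESeq2 (adjusted p = 0.0252) against 5.55%. Without all libraries labelled Tet2-/- of number 5 it was 0.57 (adjusted p = 1).

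**Figure D3:**
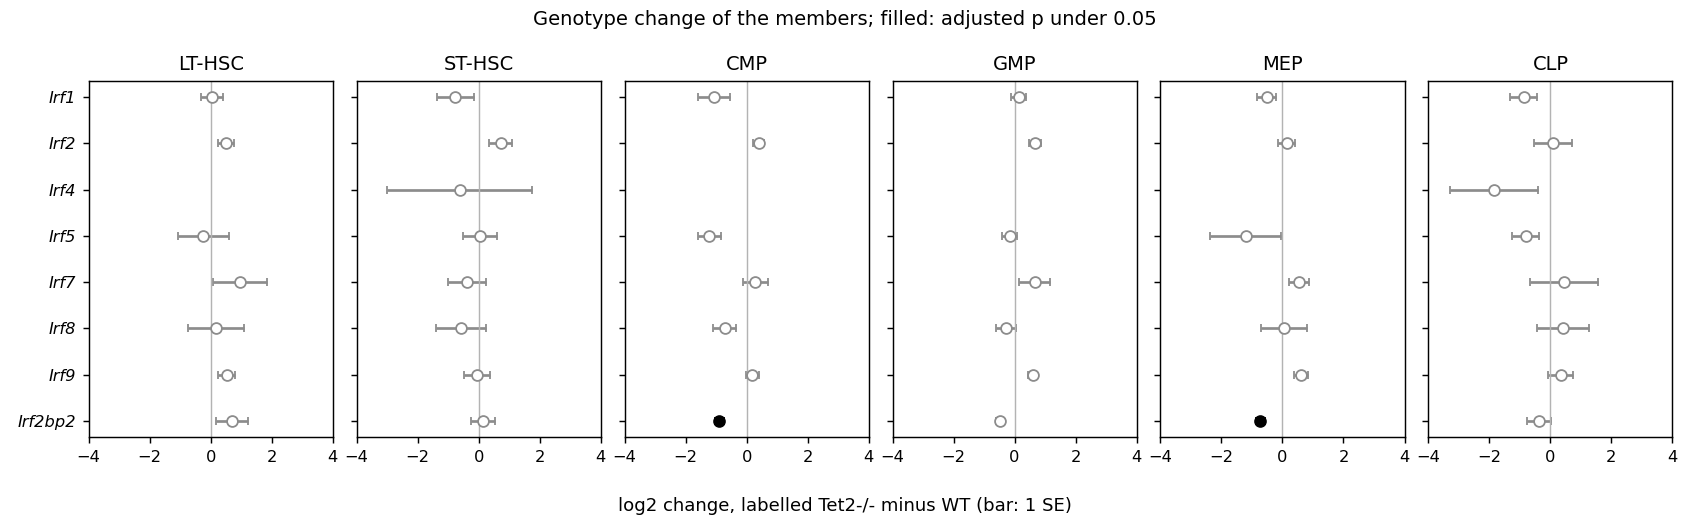
Log2 change of each tested member in the libraries labelled Tet2-/- against WT, by population, with bars of 1 SE from the edgeR fit and filled points for adjusted p under 0.05; Irf4 was tested in ST-HSC and CLP only. Irf2bp2 lies at -0.89 in CMP and -0.72 in MEP, while Irf2 and Irf9 lie above 0 in most populations.

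Irf9 in GMP leaned in the opposite direction to Irf2bp2. It was at 27.4, 24, 18.0 and 28.2 CPM in WT and at 31.3, 38.0, 39.3 and 42.1 CPM in the libraries labelled Tet2-/-, so that the groups did not overlap, as for 5.89% of genes in this direction. The difference was 0.59 on the log2 scale (SE 0.16, adjusted p = 0.0561), not called by edgeR; DESeq2 called it (adjusted p = 0.00907). In MEP, Irf9 was at 47.1, 44.0, 39.6 and 44.9 CPM in WT and at 63.6, 87.0, 82.9 and 37.8 CPM in the libraries labelled Tet2-/-. Of the latter, 3 lay above all WT libraries and 1 below them (log2 0.61, SE 0.23, adjusted p = 0.221); without that low library, number 5, the difference was 0.81 (adjusted p = 0.0244).

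Irf2 showed a similar leaning in stem cells, CMP and GMP. In LT-HSC it was at 31.1, 37.4 and 21.9 CPM in WT and at 44.0, 40.7, 38.1 and 45.9 CPM in the libraries labelled Tet2-/-, without overlap (log2 0.50, SE 0.27, adjusted p = 0.998). In LT-HSC 3.2% of genes were apart in this direction and 0.0245% were called. In CMP it was at 12.7, 12.8, 9.77 and 12.4 CPM and at 18.0, 15.8, 14 and 15.8 CPM, again apart (log2 0.40, SE 0.18, adjusted p = 0.268), as were 6.77% of genes in this direction. In GMP it was at 11.8, 17.8, 13.2 and 16.5 CPM and at 17.2, 28.4, 25.8 and 25.5 CPM, with 1 library of the latter group inside the WT range (log2 0.67, SE 0.20, adjusted p = 0.0844). DESeq2 called Irf2 in GMP (adjusted p = 0.0215), and so did edgeR without that library, number 2 (log2 0.80, adjusted p = 0.0404). In ST-HSC the WT libraries were at 11.9, 26.8 and 32.1 CPM and the others at 44.2, 41.2, 38.6 and 27.1 CPM, with overlap (log2 0.72, SE 0.37, adjusted p = 0.91). In MEP and CLP the log2 differences were 0.14 (SE 0.28) and 0.08 (SE 0.62).

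The counts of members read against the background as follows. In GMP edgeR called none of the 7 tested, against 6.56% of genes; 3 had an unadjusted p under 0.05, against 17.3% of genes, and DESeq2 called those 3, Irf2, Irf9 and Irf2bp2. In LT-HSC none of 7 was called by edgeR or DESeq2 and none had an unadjusted p under 0.05, against 5.16% of genes. In ST-HSC none of 8 was called by either tool or had such a p, with 0.0185% of genes called and 6.13% at such a p. In CLP the same held for all 8, with 0.00766% of genes called and 3.65% at such a p.

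Irf5 in CMP leaned in the direction of Irf2bp2. It was at 8.30, 10.9, 11.0 and 7.97 CPM in WT and at 3.0, 5.11, 6.43 and 1.98 CPM in the libraries labelled Tet2-/-, which lay below all WT libraries (log2 -1.22, SE 0.38, adjusted p = 0.1; DESeq2 adjusted p = 0.0255, with 11.9% of genes called by that tool). Of all genes in CMP 9.02% were apart in this direction. In GMP the Irf5 groups overlapped, with 22.6, 17.1, 11.6 and 11.8 CPM in WT against 15.5, 18.3, 13.6 and 10.2 CPM (log2 -0.17, SE 0.26). In CLP they overlapped as well, with 42.8, 76.0, 52.2 and 83.9 CPM against 17.5, 48.5, 41.7 and 43.2 CPM (log2 -0.80, SE 0.44).

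Irf8 did not differ detectably between genotypes despite its steep gradient between populations. In CMP it was at 58.1, 29.5, 109.5 and 78.6 CPM in WT and at 53.1, 57.1, 29.0 and 29.8 CPM in the libraries labelled Tet2-/- (log2 -0.72, SE 0.39, adjusted p = 0.369). In GMP it was at 148, 176, 203 and 255 CPM and at 96.8, 263, 91.1 and 217 CPM (log2 -0.27, SE 0.32). The groups overlapped in both.

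Irf1 in CMP was at 87.0, 42.5, 87.8 and 168 CPM in WT and at 19.0, 70.8, 72.9 and 21.5 CPM in the libraries labelled Tet2-/-, with overlap (log2 -1.07, SE 0.53, adjusted p = 0.325). In CLP it was at 189, 93.7, 331 and 336 CPM and at 168, 156, 81.3 and 129 CPM (log2 -0.88, SE 0.44). Irf7 differences ranged from -0.39 in ST-HSC (SE 0.62) to 0.96 in LT-HSC (SE 0.87), and its groups overlapped in all 6 populations.

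Averaged over the 6 populations in 1 fit, no member was called by edgeR, against 6.94% of 22360 genes. An unadjusted p under 0.05 was reached by 5 members, against 17% of genes. Irf2 (log2 0.42, SE 0.15, adjusted p = 0.0857) and Irf9 (log2 0.37, SE 0.13, adjusted p = 0.0853) leaned higher in the libraries labelled Tet2-/-. Irf1 (log2 -0.51, SE 0.20, adjusted p = 0.147), Irf5 (log2 -0.60, SE 0.27, adjusted p = 0.225) and Irf2bp2 (log2 -0.27, SE 0.13, adjusted p = 0.281) leaned lower. DESeq2 called Irf2 and Irf9 (adjusted p = 0.0144 and 0.0189), against 17.4% of genes. Leaving out the CLP libraries, an alternative added after seeing the data because of the plasma cell markers there, edgeR also called them (Irf2 log2 0.51, adjusted p = 0.00283; Irf9 log2 0.39, adjusted p = 0.049), against 10.1% of genes. Without all libraries labelled Tet2-/- of number 2, Irf5 was called (log2 -0.84, adjusted p = 0.0147), and without those of number 4, Irf9 (log2 0.47, adjusted p = 0.0202).

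In CLP, the members that mark other blood cells were set beside the markers of those cells in the same libraries. Irf4, the plasma cell and B cell factor, was at 145, 555, 581 and 181 CPM in WT CLP libraries and at 0.0386, 51.0, 206 and 173 CPM in those labelled Tet2-/-, the first of these from 3 counts. Summed plasma cell markers (Sdc1, Jchain, Xbp1, Prdm1) in the same libraries were 14510, 66520, 97260 and 40720 CPM and 157, 7939, 43090 and 48370 CPM. Of these sums Jchain alone held 13350, 62940, 94860 and 39620 CPM and 23.3, 7675, 41630 and 47660 CPM. Summed B cell markers ran from 570 to 1223 CPM in WT CLP and from 122 to 675 CPM in those labelled Tet2-/-, with overlap. The library with the least Irf4 was the one with the least plasma cell markers, and it also had the largest mitochondrial share of the CLP libraries (12.5% against 2.41 to 7.82%) and the fewest genes detected (13754); their part was not tested. Elsewhere Irf4 reached at most 1.48 CPM, and it was at 0 in 21 of the 46 libraries. The genotype groups in CLP overlapped (log2 -1.84, SE 1.43, adjusted p = 1).

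**Figure D4:**
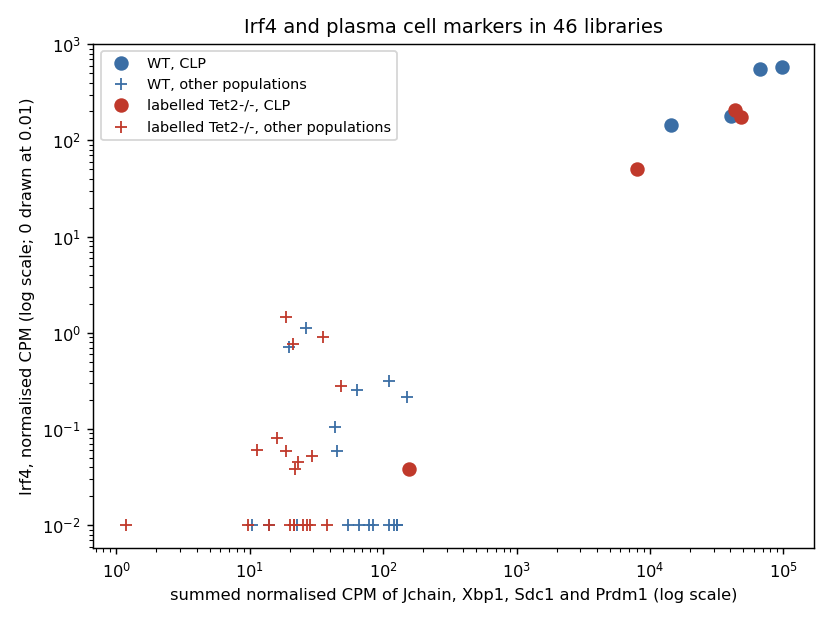
Irf4 level against the summed level of 4 plasma cell markers in each of the 46 libraries, both in CPM on log scales, coloured by genotype, with round points for CLP and crosses for the other populations. The CLP library with 157 CPM of plasma cell markers has 0.0386 CPM of Irf4, and the other CLP libraries have at least 51.0 CPM.

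Irf8 in CLP was at 551, 234, 34.6 and 87.5 CPM in WT and at 71.4, 472, 463 and 185 CPM in the libraries labelled Tet2-/- (log2 0.41, SE 0.84). The GMP markers (Mpo, Elane, Prtn3, Ctsg, Fcgr3) of these libraries summed to 3117, 1212, 4.77 and 28.3 CPM and to 2.65, 12170, 2277 and 4134 CPM. The 5 libraries with the most Irf8 were also the 5 with the most GMP markers, though not in the same order. Monocyte and macrophage markers summed to 770.5 to 2122 CPM in WT CLP and 210 to 1552 CPM in the libraries labelled Tet2-/-, and plasmacytoid dendritic cell markers to 208 to 395 and 73.6 to 128 CPM, without overlap between the genotypes. Irf7 was at 9.13, 16.8, 13.2 and 12 CPM and at 23.6, 22.7, 24.8 and 0.239 CPM, so that 3 libraries labelled Tet2-/- lay above all WT libraries and 1 far below (log2 0.44, SE 1.12). The part of all these markers in the CLP values was not tested.

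The genes around the family were followed in 8 lists. Of the 20 interferon genes themselves, 1, Ifng, was high enough to be tested in CLP and none in the other populations. In CLP, Ifng was 46.7 ± 45.8 CPM in WT and 50.5 ± 69.4 CPM in the libraries labelled Tet2-/- (SD, n = 4, log2 0.11, SE 1.64). Of the 9 genes of the interferon receptors, JAK and STAT, 2 were called lower in CMP, GMP and MEP and none higher, against 6.89%, 6.56% and 5.66% of all genes called in these populations, the background for the counts of the other lists there too. They were Ifnar2, a chain of the type I receptor, and Ifngr2, a chain of the interferon gamma receptor. In CMP, Ifnar2 was 76.5 ± 6.88 CPM in WT and 26.0 ± 6.58 CPM in the libraries labelled Tet2-/- (SD, n = 4), and Ifngr2 24 ± 3.35 and 6.71 ± 1.34 CPM (SD, n = 4). Ifngr2 fell by 1.84 in CMP (adjusted p = 0.000818), 2.07 in GMP (adjusted p = 7.79e-06) and 1.45 in MEP (adjusted p = 0.00508). Ifnar2 fell by 1.57 (adjusted p = 0.00111), 0.47 (adjusted p = 0.0418) and 1.01 (adjusted p = 0.0066), and the GMP call was lost under several single-library omissions (adjusted p up to 0.142). With all 46 libraries in 1 fit, the 3 Ifngr2 calls were lost (adjusted p = 0.27, 0.214 and 0.484), as were those of Ifnar2 in GMP and MEP (adjusted p = 1 and 0.0604), with the CMP call of Ifnar2 kept. List medians were -0.08, -0.24 and 0.04 in CMP, GMP and MEP, against 0.03, 0.03 and 0.05 over all genes.

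ISGF3 target genes, the antiviral set served by Irf9, lay mostly above 0 in the libraries labelled Tet2-/-. In GMP 21 of 23 tested were above 0 (median 0.84 against 0.03 over all genes) with 1 called, Ifi44 (log2 1.84, adjusted p = 0.033). In LT-HSC 19 of 23 were above 0 (median 0.56 against 0.06) and in ST-HSC 18 of 24 (median 0.48 against 0.04), with none called by edgeR in either and 5 and 4 of them at an unadjusted p under 0.05, against 5.16% and 6.13% of all genes. Such a p was reached by 9 of 23 in GMP (17.3% of all genes) and 5 of 23 in CMP (19.1% of all genes). It was reached by 2 of 22 in MEP (16.4% of all genes) and 2 of 14 in CLP (3.65% of all genes). In CLP 11 of 14 were above 0 (median 0.75 against 0.07) and none was called. The 2 with such a p in CLP went opposite ways, Trim30a higher (log2 0.82, unadjusted p = 0.0179) and Bst2 lower (log2 -0.96, unadjusted p = 0.0309). The mitochondrial share of counts moved with the genotype label too, from 8.73 to 9.02% in WT to 10.0 to 13.1% in ST-HSC, from 3.64 to 4.60% to 4.74 to 5.09% in GMP and, with overlap, from 8.02 to 9.50% to 8.82 to 14.5% in LT-HSC; its part was not tested. In CMP 15 of 23 were above 0 (median 0.29 against 0.03) with 2 called, Ifi44 (log2 1.30, adjusted p = 0.0378) and Ifih1 (log2 0.91, adjusted p = 0.0397), and in MEP 15 of 22 (median 0.31 against 0.05) with 1 called, Trim30a (log2 1.10, adjusted p = 0.00584). None was called lower in any population. The Ifi44 and Ifih1 calls were each lost when single libraries were left out (adjusted p up to 0.108 for Ifi44 and 0.124 for Ifih1) and with all 46 libraries in 1 fit (adjusted p from 0.777 to 0.946).

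Of 13 Irf1 target genes of antigen presentation, 2 were called in GMP, both higher, Tapbp (log2 0.91, adjusted p = 0.00989) and Psmb10 (log2 0.43, adjusted p = 0.043), the latter lost under single omissions (adjusted p up to 0.155); the list median there was 0.12 against 0.03 over all genes. None was called in the other populations. The list median was 0.57 in MEP, with 11 of 13 above 0 and 4 at an unadjusted p under 0.05 (16.4% of all genes). In CLP it was -0.23, with 5 of 13 above 0. Averaged over all populations in 1 fit, edgeR called Psmb10 higher and H2-D1 lower, against 6.94% of genes. Both calls were lost when libraries of single numbers were left out (adjusted p up to 0.114 and 0.0645). Among 12 Irf8 partners and monocyte-dendritic genes, none was called higher and Spi1, which encodes the partner PU.1, was lower in the 3 myeloid progenitors. The list medians were -0.60 in CMP, -0.16 in GMP and -0.45 in MEP. Spi1 stood at 103 ± 12.5 CPM in WT CMP and 12.3 ± 2.88 CPM in the libraries labelled Tet2-/- (SD, n = 4), a fall by 3.08 (adjusted p = 2.89e-05), followed by falls by 2.61 in GMP (adjusted p = 1.19e-06) and 3.45 in MEP (adjusted p = 0.003). Also lower were Ctss in CMP (log2 -1.31, adjusted p = 0.0168) and Ly86 in GMP (log2 -1.15, adjusted p = 0.0168), both calls lost when single libraries were left out (adjusted p up to 0.0562 and 0.0588). Of the 10 genes tested for the activation of Irf5 and Irf7, 2 were lower in GMP, Slc15a4 (log2 -1.42, adjusted p = 0.00225), a lysosomal transporter needed for endosomal receptor signalling, and Traf6 (log2 -0.94, adjusted p = 0.0196), whose call was lost in the same way (adjusted p up to 0.0695). In 1 fit of all 46 libraries the GMP calls of Tapbp, Psmb10, Ly86, Slc15a4 and Traf6 and the CMP call of Ctss were lost (adjusted p from 0.182 to 1), whereas those of Spi1 were kept. The Irf4 partners and the 4 Irf2bp2 relatives and partners had no call in the main fits. Of the latter, Vgll4 in CMP had log2 -0.70 (adjusted p = 0.069). Irf2bpl in MEP was low, at 0.903 ± 0.565 CPM in WT and 0.109 ± 0.08 CPM in the libraries labelled Tet2-/- (SD, n = 4). Its log2 difference was -2.76 in the main edgeR fit (adjusted p = 0.0844). Over 5 alternative settings it was -3.04 to -2.69, with edgeR or DESeq2 adjusted p from 0.0163 to 0.233.

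The second table gave the readout in LT-HSC labelled by Sting genotype. Its libraries detected 9382 to 11528 of 35976 genes, against 13754 to 20964 of 55421 in the first table. Tet2 was at 24.7, 0 and 0 CPM in its libraries labelled WT. How far this limited detection accounts for the values at 0 given below was not tested. Sting (gene symbol Tmem173) is the adaptor that starts interferon production after DNA sensing. Tmem173 was at 45.3, 34.1 and 0 CPM in the libraries labelled WT, at 122, 0 and 63.5 CPM in those labelled Sting-/- and at 0, 0.191 and 26.2 CPM in those labelled DKO, so its count does not separate the labels, though a whole-gene count can include exons that a deletion leaves; the groups are named here by label only. None of the 7 members tested was called by edgeR in any of the 3 pairs, against 0.00915% of 10925 genes between the labels Sting-/- and WT, 1.13% between DKO and WT and 0.686% between DKO and Sting-/-. Irf4 did not pass the filter, since it was at 22.8 CPM in 1 library labelled WT, at 23.7 CPM in 1 labelled Sting-/-, at 0.247 CPM in 1 labelled DKO and at 0 in the others.

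Irf8 was the member that DESeq2 called. It was at 69.8, 10.5 and 92.0 CPM in WT, at 78.2, 14.9 and 0 CPM in the libraries labelled Sting-/- and at 0, 0.246 and 0 CPM in those labelled DKO. The latter lay below all WT libraries, as did 12.9% of genes in this direction, and they overlapped with those labelled Sting-/- through 1 library at 0. The adjusted p was 0.233 against WT and 0.418 against Sting-/- by edgeR, and 0.000528 and 0.00285 by DESeq2, which called 11.7% and 9.4% of all genes in these pairs.

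**Figure D5:**
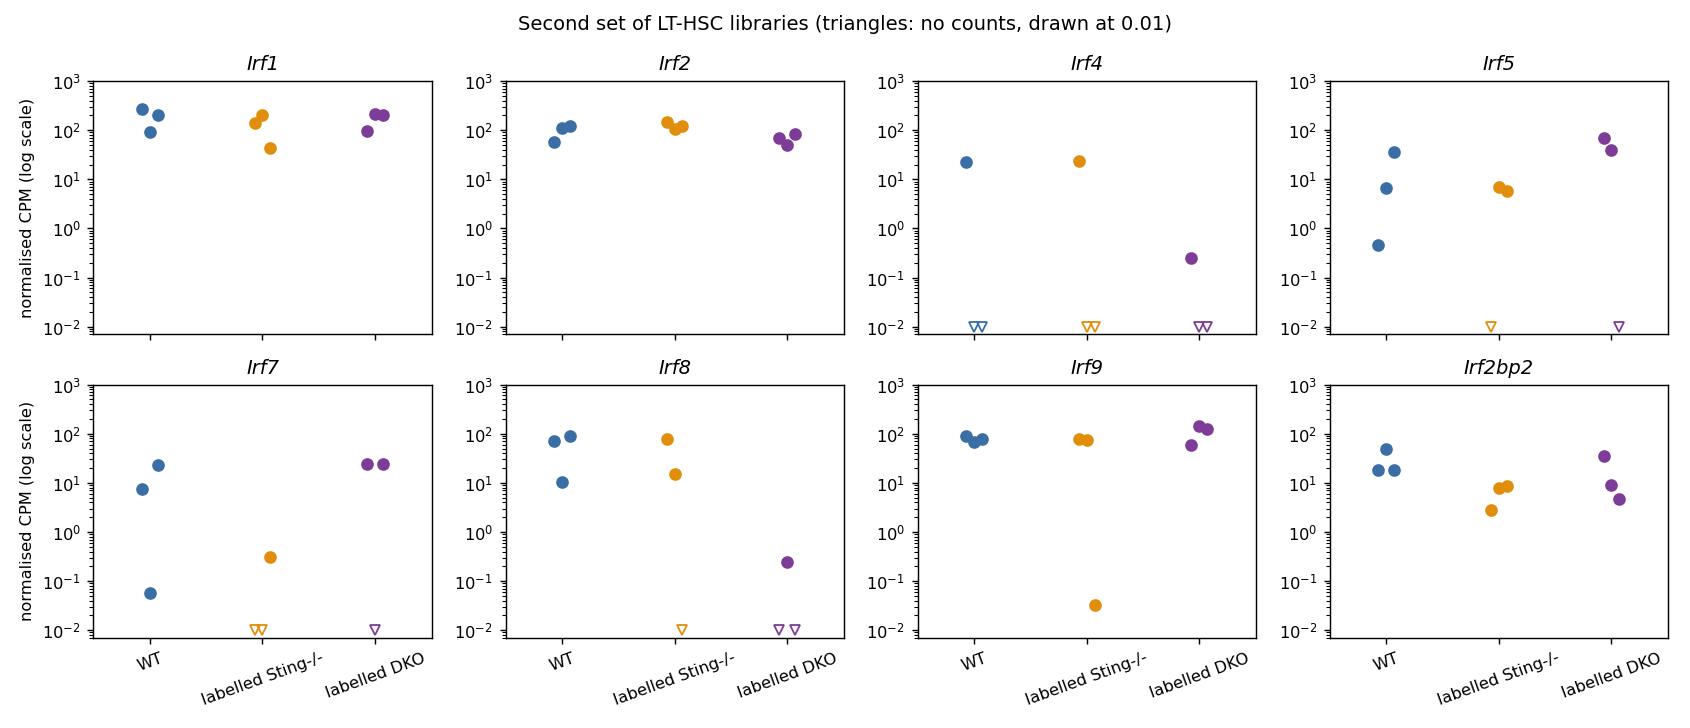
Normalised level (CPM) of the members in the 9 LT-HSC libraries of the second table, by genotype label, on a log scale; each point is 1 library and open triangles are at 0. Irf8 is at 0 to 0.246 CPM in the libraries labelled DKO, and several members are at 0 in single libraries of other groups.

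Irf2bp2 in this table was at 18.5, 48.2 and 18.2 CPM in WT, at 2.80, 7.88 and 8.57 CPM in those labelled Sting-/- and at 34.7, 8.85 and 4.69 CPM in those labelled DKO. The libraries labelled Sting-/- were below all WT libraries (log2 -2.16, SE 1.71, adjusted p = 1), as were 6.99% of genes in this direction. Irf2 was at 57.4, 112 and 119 CPM, at 148, 105 and 121 CPM and at 69.5, 51.0 and 83.2 CPM, with those labelled DKO below all labelled Sting-/- (log2 -0.85, SE 0.53, adjusted p = 0.65), as were 9.87% of genes. Irf9 was at 89.8, 67.3 and 76.5 CPM, at 76.5, 73.2 and 0.0331 CPM and at 59.0, 141 and 127 CPM. Irf1 was at 272, 90.7 and 206 CPM, at 139, 202 and 43.4 CPM and at 97.6, 214 and 207 CPM, with the groups overlapping throughout.

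Irf5 and Irf7 were at 0 in some libraries of each group labelled as mutant and not in others. Irf5 was at 0.456, 6.63 and 36.7 CPM in WT, at 0, 6.98 and 5.76 CPM in those labelled Sting-/- and at 68.9, 39.1 and 0 CPM in those labelled DKO, and Irf7 at 7.34, 0.0585 and 23.5 CPM, at 0, 0 and 0.314 CPM and at 24.6, 0 and 24 CPM. Of the genes the family serves, only H2-D1 and H2-K1, Irf1 targets that encode MHC class I and are so alike that reads can be split between them uncertainly, were called in the lists, lower under the label DKO than in WT (log2 -3.31, adjusted p = 0.00112, and -1.94, adjusted p = 0.00733) and than under Sting-/- (log2 -2.84, adjusted p = 0.00233, and -1.89, adjusted p = 0.0111, a call of H2-K1 lost with only these 2 groups in the fit, adjusted p = 0.0516). The median of the 13 genes of that list was above 0 in both pairs, at 0.58 with 7 above 0 against WT and at 0.43 with 9 above 0 against Sting-/-. Xist was at 89.7 to 241 CPM in WT and at most 15.5 CPM in the other libraries, and Eif2s3y, a Y-linked gene, at most 0.234 CPM in WT and at least 157 CPM in the others, so that sex and genotype cannot be told apart in the comparisons with WT; libraries of both other labels carried the Y-linked gene.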

How the data were processed

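RNA of sorted cells was amplified with SMART-Seq2. The authors trimmed reads with Trim Galore, aligned them with HISAT2 to mm10 and deposited raw counts per gene; mm9 also appears in the submitters' processing notes, and the counting program and its use of strand are not given in the sources used here. Counts were used as deposited, with columns assigned to samples by name. The 2 tables were analysed apart, and 2 broken lines of the second were left out.

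Genes were filtered with filterByExpr, scaled by TMM and tested with edgeR 4.0.16 (glmQLFit and glmQLFTest, prior count 2, limma 3.58.1, R 4.3.3) within each population, over the 6 populations of each genotype, and for interaction and mean effect over 46 libraries, with Benjamini-Hochberg adjustment over all genes tested. SE is the absolute log2 change divided by the root of F. The script was tested on simulated counts. Alternatives were RLE size factors, no filter, DESeq2 1.42.0, a 2-fold rule, a replicate block, all libraries in 1 fit, only the 2 groups compared, an animal block with voom, and leaving out libraries. Within a population and in the second table each library was left out in turn. In fits over several populations, all libraries that shared a genotype and a number were left out together. Leaving out the CLP libraries and annotation exon lengths were added after seeing the data. Levels between genes were compared per length, from the gene lengths of the second table. Promoter windows came from RefSeq. Precision is limited by 3 or 4 libraries a group.

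The 8 members, the 8 pathway lists and the 13 marker lists were chosen with earlier results of these data known. Named genes are all members, from each list the called genes (at most 4 a comparison, those with the largest change) or, without a call, up to 2 with the smallest p, the 3 nearest profiles of each member, and genes that check labels.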

Additional observations from a re-analysis of the deposited data

Results flagged for a closer look

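In 12 of 80 groups of 4 libraries, 1 library stood apart from the other 3 in a member's level by Dixon's criterion; chance gives about 1 in 20 groups for normally distributed values, which does not apply to the 6 groups of Irf4 with counts near 0. Irf2 was at 9.77 CPM in WT CMP library 4, below the others at 12.4 to 12.8 CPM, and at 54.1 CPM in CLP library 2 labelled Tet2-/-, above the others at 26.1 to 30.7 CPM. Irf4 was at 1.48 CPM in ST-HSC library 2 labelled Tet2-/-, where the other 3 were at 0. It was above 0 in 1 library of 4 at 0.256 CPM in WT CMP, at 0.214 CPM in WT GMP and at 0.0607 CPM in MEP labelled Tet2-/-, and it stood above the others at 0.758 CPM in CMP and 0.902 CPM in GMP labelled Tet2-/-, all from 67 counts or fewer. Irf5 was at 0.423 CPM in 1 MEP library labelled Tet2-/-, above the others at 0 to 0.0630 CPM. Irf7 was at 4.04 CPM in GMP library 3 labelled Tet2-/-, above the others at 2.02 to 2.27 CPM, at 7.02 CPM in WT MEP library 4, above the others at 3.32 to 3.86 CPM, and at 0.239 CPM in CLP library 5 labelled Tet2-/-, below the others at 22.7 to 24.8 CPM.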

How the results depend on the processing

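Of the values recomputed under other settings, those of Irf2bp2 in CMP kept their direction throughout (log2 -0.97 to -0.83 without single libraries, adjusted p up to 0.0223). The number of members called moved as follows. DESeq2 called 2 in CMP, 3 in GMP, 8 between the populations labelled Tet2-/-, 1 for the LT-HSC difference minus the mean of the other 5, 2 for the mean effect, 1 for DKO against WT and 1 for DKO against Sting-/-. All 46 libraries in 1 fit gave 0 in CMP and 0 in MEP, and the 2-fold rule 0 in both. Without the CLP libraries the mean effect had 2, and 6 were called between WT populations. Leaving out single libraries gave 0 to 1 in GMP, 0 to 2 in MEP and 1 in CMP. In the fits over several populations, all libraries that shared a genotype and a number were left out together. This gave 6 to 8 between WT populations, 4 to 7 between the populations labelled Tet2-/- and 0 to 1 for the mean effect. The cause was not tested.

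Replicate numbers are shared between groups but did not pair the genotypes by their deviations from group means, whose correlations were -0.0226 to 0.0347 over 22 same-numbered pairs. Between populations the median was 0.0278 and 0.0216 for the same number, in libraries labelled Tet2-/- and WT, against -0.00956 and -0.00683 for different ones. Jchain in MEP was at most 0.186 CPM in the libraries numbered 2 and 3 and at least 6.19 CPM in those numbered 4 and 5 of both genotypes. The same division held in CMP (at most 1.18 and at least 2.65 CPM) and GMP (at most 0.697 and at least 2.59 CPM). In LT-HSC, ST-HSC and CLP the numbers did not divide this way in both genotypes. A number may thus mark something shared between the genotypes, and its part in the differences was not tested beyond the replicate block. With the replicate block, 0 members were called in MEP (Irf2bp2 adjusted p = 0.0533), 1 for the mean effect (Irf9, adjusted p = 0.0449), and Irf2bp2 in CMP stayed called (adjusted p = 0.0412). The difference of Ifng in CLP reversed, from 0.11 to -1.09 with the block and to between -1.48 and 0.72 without single libraries.

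Over all genes, DESeq2 called 1906 against 1105 by edgeR in CMP, 1704 against 1086 in GMP, 1372 against 846 in MEP, 161 against 4 in LT-HSC, 235 against 3 in ST-HSC and 127 against 1 in CLP. The share of calls that were higher rose from 24.8 to 36.3% in CMP, from 16.3 to 28.5% in GMP and from 42.2 to 58.2% for the mean effect. Members under about 1 CPM, Irf4 outside CLP and Irf5 and Irf8 in MEP, rest on few counts, which limits the precision of genotype differences there; whether depth is the reason for the missing calls was not tested.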
